A study of Mus musculus with 32 samples.

Results

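RNA-seq profiles of granulocyte-macrophage progenitors (GMPs) and megakaryocyte-erythrocyte progenitors (MEPs) from aged mice were compared with each other. The comparison uses 4 of the 32 libraries of the series, namely the GMP and MEP columns of the raw gene count matrix at 20 months, with 2 libraries in each fraction. The series covers 8 marrow fractions of female C57BL/6 mice at 10 weeks (young) and 20 months (aged). The labels name no genetic change or treatment for any group. Both fractions were sorted as c-kit+ cells negative for lineage markers, for Sca-1 and for what the labels write as IL-7-, where the methods of the study name an antibody to the receptor, IL-7Rα. GMPs were the FcgR+ CD34+ cells of this gate and MEPs the FcgR- CD34- cells. Figure legends of the study on HSC expression call the duplicates biologically independent. In another place the study states that marrow was pooled by age before sorting in duplicate, without saying which mice went into each duplicate. The errors and p-values below therefore measure the spread between libraries, which may be technical.

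GMPs give rise to neutrophils, monocytes and other myeloid cells, and MEPs to red cells and platelets. The choice between the fates is classically described as an opposition of PU.1 (encoded by Spi1) and C/EBP factors on one side and GATA1 with KLF1 on the other. Myeloid progenitors fill granules with proteases and myeloperoxidase, whereas erythroid progenitors prepare for heme and hemoglobin synthesis, iron uptake and a spectrin-based membrane.

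Total counts were 13161206 and 13426057 in the aged GMP libraries and 11237384 and 12127426 in the aged MEP libraries. Levels are given as CPM, the count scaled to the library total. By counting error alone, a gene seen 0 times may still stand at up to 3 counts, here 0.223 to 0.267 CPM. Where both libraries of a fraction had 0 counts, the fold is given as a lower bound against 3 counts per library. The root mean square log2 difference was 0.508 between the aged GMP duplicates and 0.565 between the aged MEP duplicates, and 2.16 between the fractions. Aged MEP replicate 1 held more granule protein RNA than replicate 2, with 135 against 38.6 CPM summed over 22 granule genes.

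Promoters of 3 MEP genes and 3 GMP genes that define the fractions are shown because the factors named above are known to act through short DNA motifs. Each runs from 250 bases before to 50 bases after a RefSeq transcript start. Capitals mark, on either strand, the GATA factor motif (AGATAA or TGATAA) and the KLF1 motif (CCACACCC) in the MEP promoters.

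Klf1 (GRCm38.p6, chr8:84901732-84902031, plus strand): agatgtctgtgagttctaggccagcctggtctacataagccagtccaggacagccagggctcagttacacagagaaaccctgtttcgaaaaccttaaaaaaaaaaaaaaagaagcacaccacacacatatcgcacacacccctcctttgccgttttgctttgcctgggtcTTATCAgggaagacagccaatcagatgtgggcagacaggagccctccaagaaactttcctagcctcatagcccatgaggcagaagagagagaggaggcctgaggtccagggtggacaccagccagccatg
Alas2 (GRCm38.p6, chrX:150547167-150547466, plus strand): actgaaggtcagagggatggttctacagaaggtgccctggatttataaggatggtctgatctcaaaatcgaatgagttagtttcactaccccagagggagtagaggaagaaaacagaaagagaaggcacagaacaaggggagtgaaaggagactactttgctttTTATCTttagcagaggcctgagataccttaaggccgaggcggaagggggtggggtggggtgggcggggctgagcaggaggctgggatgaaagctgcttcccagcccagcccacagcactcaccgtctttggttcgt
Epor (GRCm38.p6, chr9:21963527-21963826, minus strand): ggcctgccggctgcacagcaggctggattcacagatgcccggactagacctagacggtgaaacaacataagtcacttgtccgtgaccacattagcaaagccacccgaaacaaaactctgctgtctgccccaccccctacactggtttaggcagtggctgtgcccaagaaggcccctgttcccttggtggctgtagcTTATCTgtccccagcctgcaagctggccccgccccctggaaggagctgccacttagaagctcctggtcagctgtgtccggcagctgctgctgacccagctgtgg

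In the GMP promoters capitals mark the PU.1 motif (AGGAAGT) and the C/EBP motif (TTGCNNAA).

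Mpo (GRCm38.p6, chr11:87793534-87793833, plus strand): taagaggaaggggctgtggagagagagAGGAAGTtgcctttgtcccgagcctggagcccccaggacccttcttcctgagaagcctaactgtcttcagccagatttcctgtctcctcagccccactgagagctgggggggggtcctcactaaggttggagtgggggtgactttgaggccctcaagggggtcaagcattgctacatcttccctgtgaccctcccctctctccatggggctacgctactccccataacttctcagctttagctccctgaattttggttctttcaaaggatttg
Elane (GRCm38.p6, chr10:79886062-79886361, plus strand): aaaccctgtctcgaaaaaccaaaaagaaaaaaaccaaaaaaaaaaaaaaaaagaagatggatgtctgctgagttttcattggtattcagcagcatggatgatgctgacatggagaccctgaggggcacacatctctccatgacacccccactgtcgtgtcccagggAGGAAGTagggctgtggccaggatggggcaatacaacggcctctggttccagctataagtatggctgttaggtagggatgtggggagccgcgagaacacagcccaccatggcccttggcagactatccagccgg
Csf3r (GRCm38.p6, chr4:126024409-126024708, plus strand): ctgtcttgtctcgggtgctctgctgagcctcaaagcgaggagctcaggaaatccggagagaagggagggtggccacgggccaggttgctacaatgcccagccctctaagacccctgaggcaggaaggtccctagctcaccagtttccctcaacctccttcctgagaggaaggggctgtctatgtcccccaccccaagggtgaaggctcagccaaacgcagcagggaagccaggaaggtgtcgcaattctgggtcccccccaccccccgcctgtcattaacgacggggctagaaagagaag

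The GATA factor letters began at position -80 of Klf1, -86 of Alas2 and -54 of Epor, counted from the RefSeq start. The PU.1 letters began at position -223 of Mpo and -84 of Elane, and neither GMP motif was found in the Csf3r window. The KLF1 letters were not found in the 3 MEP windows.

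Of 14154 genes tested, 3910 were higher in aged GMPs and 3207 were higher in aged MEPs (edgeR quasi-likelihood test, Benjamini-Hochberg adjusted p under 0.01). These are 27.6% and 22.7% of the genes tested, the shares to set beside the list counts below. The differences in favor of GMPs were the larger ones, with a median log2 fold change of 1.87 among the genes higher in GMPs and -0.83 among those higher in MEPs. Differences of at least 4-fold were called for 1874 genes in GMPs (13.2%) and 670 in MEPs (4.73%). The median over all tested genes was 0.00.

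**Figure D1:**
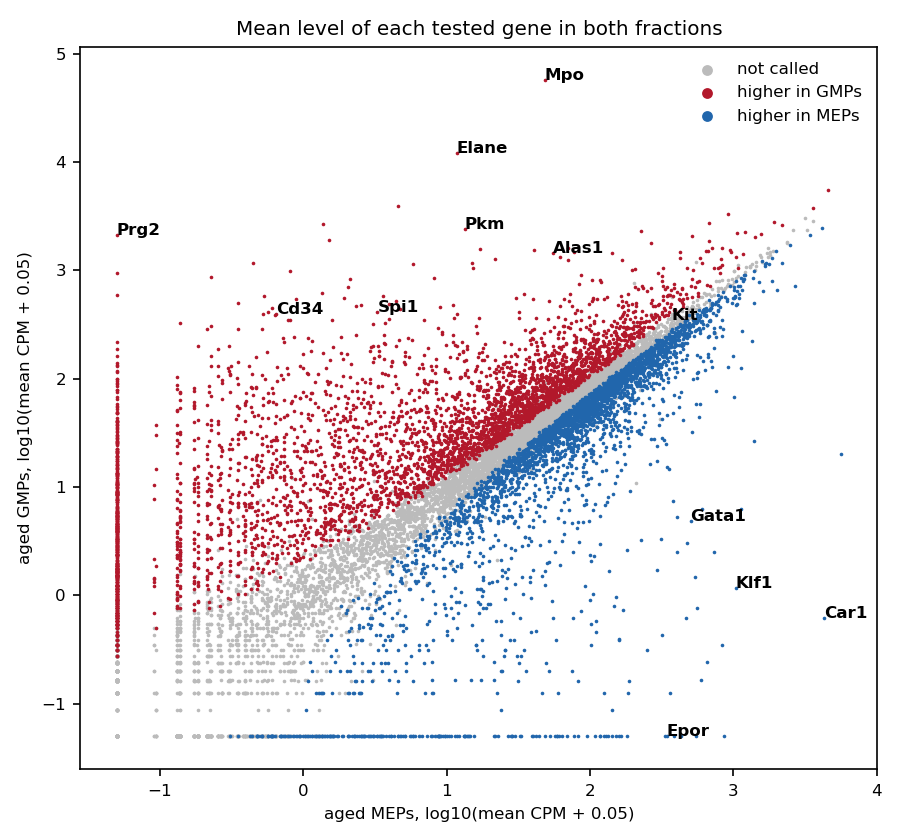
Mean CPM of each tested gene in aged MEPs (x axis) and aged GMPs (y axis), both as log10 of CPM plus 0.05, with genes called higher in GMPs in red, higher in MEPs in blue and the rest in gray. Points along the left and lower edges are genes without a count in both libraries of 1 fraction, such as Prg2 in MEPs and Epor in GMPs.

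The most abundant transcripts differed between the fractions. Mpo, the myeloperoxidase of azurophil granules, took 5.76% ± 0.151 (SD, n = 2) of all counts in aged GMPs. Elane, Actb, Prtn3 and Eef1a1 followed with 1.23%, 0.556%, 0.398% and 0.375%. In aged MEPs the carbonic anhydrase gene Car2 led with 0.565%, followed by Actb with 0.460%, Car1 with 0.429%, Hspa8 with 0.416% and Eef1a1 with 0.362%.

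Genes for the gate antigens followed the gates. Cd34 had 5506 and 5056 counts in the GMP libraries and 7 in each MEP library (log2 fold change 9.53 ± 0.20 SE, adjusted p = 2.42e-20). Fcgr3, a low-affinity IgG receptor, had 5459 and 5577 counts in GMPs and 7 and 5 in MEPs (9.81 ± 0.22, adjusted p = 1.14e-19). Its inhibitory relative Fcgr2b had 1666 and 1803 counts in GMPs and was at 0 in both MEP libraries, at least 507-fold higher in GMPs. These 3 genes encode what the sorts used, so their differences restate the gates. Kit, required in both gates, had 4827 and 4402 counts in GMPs and 4026 and 4705 in MEPs and was not called (0.07 ± 0.11, adjusted p = 0.601). Ly6a, which encodes Sca-1, was low and uneven between duplicates, with 148 and 34 counts in GMPs and 0 and 9 in MEPs (log2 fold change 4.30 ± 1.27, adjusted p = 0.00568). The call on Ly6a was lost without aged GMP replicate 1 (2.80, adjusted p = 0.165), aged MEP replicate 1 (3.38, adjusted p = 0.0523) or aged MEP replicate 2 (9.76, adjusted p = 0.018), and with only the 4 libraries fitted (adjusted p = 0.0171). Il7r had 0 and 0 counts in GMPs against 2 and 5 in MEPs.

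The defining markers followed the labels of both fractions. The 6 GMP markers Mpo, Elane, Cebpe, Csf3r, Cebpa and Ms4a3 were called higher in GMPs and the MEP markers Gata1, Klf1, Epor, Car1 and Alas2 higher in MEPs. Alas2 was the weakest, with 75 and 95 counts in MEPs and 22 and 10 in GMPs (-2.41 ± 0.68, adjusted p = 0.00427), and its call was lost without aged GMP replicate 2 (-2.02, adjusted p = 0.0446), aged MEP replicate 1 (-2.51, adjusted p = 0.0106) or aged MEP replicate 2 (-2.32, adjusted p = 0.0202).

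All 12 myeloid transcription factors tested were higher in GMPs, with a median log2 fold change of 6.93 (all tested genes, 0.00). Irf8, which directs monocyte and dendritic cell development, had 10845 and 11369 counts in GMPs and 20 and 29 in MEPs (8.81 ± 0.19, adjusted p = 5.32e-20). Spi1 had 5379 and 5513 counts against 34 and 42 (7.15 ± 0.12). Gfi1, a repressor needed for neutrophil development, had 2367 and 1969 against 4 and 0 (10.00 ± 0.36). In each of these the fractions were far apart and the duplicates close. Cebpa (7.89 ± 0.26) and Cebpe (8.94 ± 0.45), regulators of early and of late granulopoiesis, showed differences of similar size. At the low end of the group stood Id2 and Rara (both 1.15) and Zeb2 (1.84 ± 0.12), which remained at 465 and 591 counts in MEPs.

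Of 18 erythroid and megakaryocyte transcription factors, 13 were higher in MEPs and 3 in GMPs, with a median of -2.02. Klf1, the erythroid Kruppel-like factor, had 11943 and 12371 counts in MEPs and 19 and 11 in GMPs (-9.66 ± 0.29, adjusted p = 8.23e-18). Gata1 had 5648 and 6122 against 64 in each GMP library (-6.53 ± 0.20), and its cofactor Zfpm1 (FOG1) 4177 and 4675 against 115 and 82 (-5.49 ± 0.45). Gfi1b, the erythroid and megakaryocytic paralog of Gfi1, had 6583 and 6073 against 17 and 21 (-8.38 ± 0.22), so the paralogs lay on opposite sides. Gata2, which acts earlier in the hierarchy, differed by less (-1.12 ± 0.22).

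The 3 genes of this group that were higher in GMPs were Fli1, Myb and Nfe2. Fli1, an ETS factor of megakaryocytes, had 2168 and 2222 counts in GMPs and 80 and 82 in MEPs (4.75 ± 0.17, adjusted p = 1.95e-16). Myb, a regulator of progenitor proliferation, had 9628 and 8894 against 3889 and 4118 (1.20 ± 0.08), and Nfe2, a factor of platelet formation, 3413 and 3310 against 1584 and 1678 (1.04 ± 0.13). The adaptors Lmo2 and Ldb1, which join GATA and TAL1 complexes, were not called (-0.04 ± 0.06 and 0.09 ± 0.10), while Tal1 itself was higher in MEPs (-4.08 ± 0.19).

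**Figure D2:**
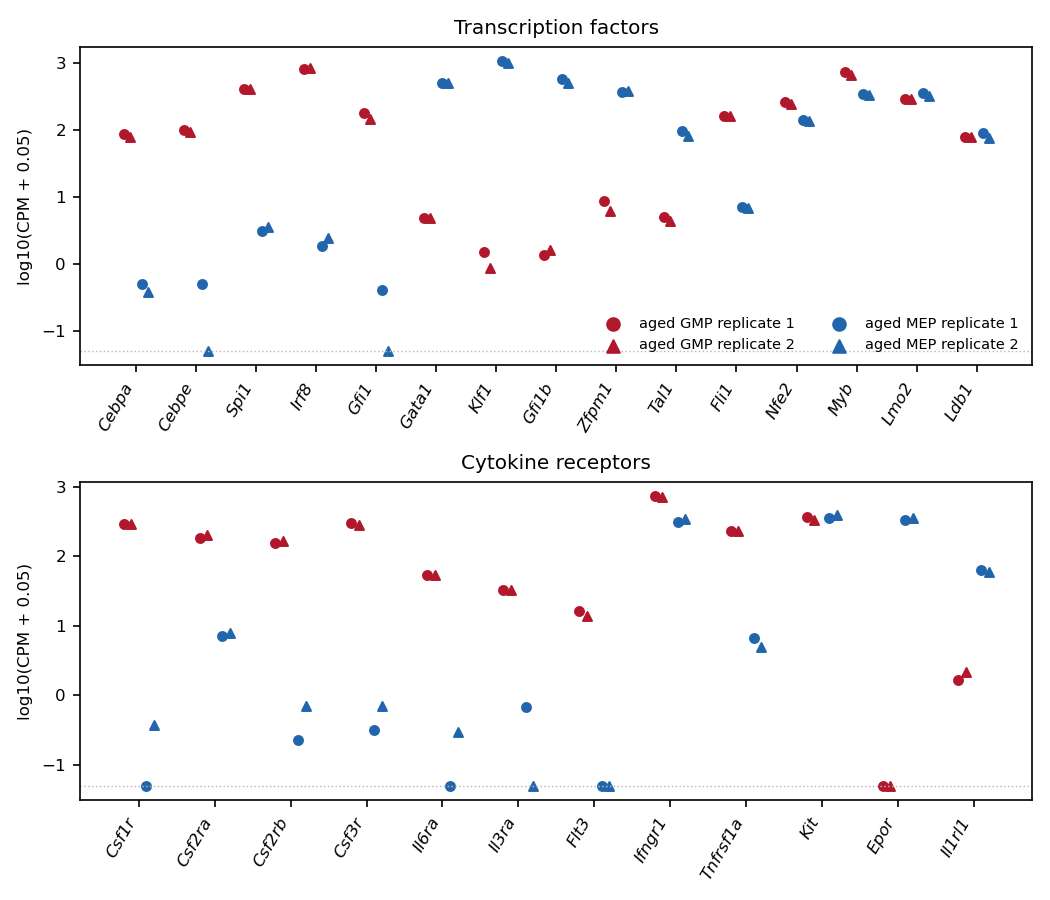
CPM of transcription factor genes (upper panel) and cytokine receptor genes (lower panel) in each of the 4 aged libraries, as log10 of CPM plus 0.05, with GMPs in red, MEPs in blue, replicate 1 as circles and replicate 2 as triangles; the dotted line marks 0 CPM. Fli1, Nfe2 and Myb lie higher in GMPs, Lmo2, Ldb1 and Kit overlap or lie close, and both GMP points of Epor are at 0.

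Among 20 cytokine receptor genes, 16 were higher in GMPs and 3 in MEPs, with a median of 5.11. Csf1r, the M-CSF receptor, had 3767 and 3909 counts in GMPs and 0 and 4 in MEPs (10.83 ± 0.35, adjusted p = 4.10e-17). Csf3r, the G-CSF receptor, had 3951 and 3736 against 3 and 8 (9.42 ± 0.19), and the shared beta chain Csf2rb 2041 and 2202 against 2 and 8 (8.69 ± 0.25). Ifngr1, a chain of the interferon gamma receptor, had 9465 and 9493 counts against 3526 and 4080 (1.31 ± 0.08). The genes higher in MEPs included Epor and Il1rl1. Epor, the erythropoietin receptor, had 3766 and 4281 counts in MEPs and 0 in both GMP libraries, at least 1524-fold higher in MEPs. Il1rl1, the IL-33 receptor, had 715 and 718 counts against 21 and 28 (-4.87 ± 0.34).

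Of the 24 gene lists described here, granule proteins had the highest summed level in GMPs. The 22 listed genes summed to 80260 and 79620 CPM in GMPs, and 18 of the 21 tested were higher there, with a median of 6.92 (6.76 with genes at 0 set to their bound). Mpo had 772353 and 759188 counts in GMPs and 880 and 227 in MEPs (10.39 ± 0.57, adjusted p = 4.02e-13). The primary granule proteases Elane (10.22 ± 0.54), Prtn3 (9.96 ± 0.24) and Ctsg (11.19 ± 0.40) showed differences of the same order. Ms4a3, a marker of committed GMPs, had 12220 and 14108 counts against 17 and 0 (10.57 ± 0.43). Fcnb, a secreted lectin, had 562 and 742 counts in GMPs and 0 in both MEP libraries, at least 191-fold higher in GMPs.

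Genes of later granules were low in both fractions. Ltf (lactoferrin) had 27 and 39 counts in GMPs and 26 and 0 in MEPs, Camp 7 and 13 against 9 and 0, and Mmp9 21 and 7 against 10 and 0, and these 3 were not called. The MEP counts of all 3 came from replicate 1, the library with more granule RNA. What part that RNA had in these differences was not tested. Without aged MEP replicate 1 the median of the granule list was 9.56.

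The machinery of the oxidative burst followed the granules. All 6 NADPH oxidase genes were higher in GMPs, with a median of 7.33. Ncf4 (p40phox) had 1620 and 1927 counts in GMPs and 0 in MEPs, at least 518-fold higher in GMPs. Ncf1 (p47phox) had 5849 and 6204 against 6 and 7 (9.83 ± 0.23), and Cybb, the catalytic subunit, 1301 and 1581 against 4 and 2 (8.85 ± 0.47). Cyba and Rac2, which serve other complexes too, were higher by 2.72 and 3.17.

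Of 15 monocyte and dendritic cell genes 13 were higher in GMPs, with a median of 8.81 (6.49 with bounds). Clec12a, an inhibitory lectin receptor, had 7447 and 8403 counts in GMPs and 0 in MEPs, at least 2317-fold higher in GMPs. Ms4a6c and Ly86 were likewise at 0 in both MEP libraries and at least 545-fold and 349-fold higher in GMPs. Among 17 pattern recognition genes 10 were higher in GMPs, including Clec7a (dectin-1, at least 144-fold), Cd14 (at least 80.1-fold) and Tlr4, with 313 and 316 counts against 0 and 2 (a ratio of 276, counting interval 76.2 to 2287). The shared adaptor Myd88 had 1101 and 1117 against 826 and 903 counts and was not called (adjusted p = 0.0198). Of 14 adhesion and chemokine receptor genes 9 were higher in GMPs and 2 in MEPs (27.6% and 22.7% over all genes tested). Itgam (CD11b) had 636 and 725 counts against 0 and 2 (a ratio of 598, counting interval 165 to 4943), and Ccr2 was higher by 6.49 ± 0.39. The 2 genes higher in MEPs encode the subunits of the integrin VLA-4, Itga4 (-0.93 ± 0.16) and Itgb1 (-0.57 ± 0.10).

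MHC class II genes divided, with 4 of 10 higher in GMPs and 5 in MEPs (27.6% and 22.7% over all genes tested). The invariant chain gene Cd74 had 142 and 437 counts in MEPs and 9 and 36 in GMPs (-3.67 ± 0.42, adjusted p = 8.97e-08). In the peptide-loading machinery the direction was opposite, as H2-DMb1 had 651 and 734 counts in GMPs and 50 and 89 in MEPs (3.31 ± 0.18). Ctss, the protease that trims the invariant chain, was higher in GMPs by 6.43 ± 0.36. The class II genes of MEPs were uneven, with replicate 2 at several times the counts of replicate 1 for Cd74 and H2-Aa (58 and 222). Without aged MEP replicate 2 the median of the list went from -1.03 to -0.28 and 3 genes in place of 5 were called higher in MEPs. With only the 4 libraries fitted, 2 were.

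The red cell program was the counterpart in MEPs. Of 20 red cell membrane and enzyme genes tested, 18 were higher in MEPs, with a median of -11.38 (-8.59 with bounds) and sums of 15390 and 15300 CPM in MEPs against 254 and 239 CPM in GMPs. Car1 had 49447 and 50712 counts in MEPs and 8 and 7 in GMPs (-12.69 ± 0.73, adjusted p = 1.05e-12). Ermap, an erythroblast membrane protein, had 9150 and 10992 counts and was at 0 in both GMP libraries, at least 3812-fold higher in MEPs. Rhag, the Rh-associated glycoprotein, and Cldn13 were also at 0 in GMPs and at least 1913-fold and 1475-fold higher in MEPs. The list was not uniform, since Slc4a1 (band 3), an abundant protein of mature red cells, had 47 and 124 counts in MEPs and 29 and 4 in GMPs and was not called (adjusted p = 0.0178).

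Globin transcripts differed between the GMP duplicates and were close between the MEP duplicates, with list sums of 122 and 46.3 CPM in GMPs and 468 and 491 CPM in MEPs. Hba-a2 had 3452 and 3792 counts in MEPs and 809 and 325 in GMPs (-2.68 ± 1.61, adjusted p = 0.161). Hbb-b2 was the 1 gene of 6 tested that was called, with 798 and 924 against 297 and 118 (-2.06 ± 0.47, adjusted p = 0.000729). The number called was 0 without aged GMP replicate 2, 2 without aged GMP replicate 1 or with only the 4 libraries fitted, and 3 with DESeq2. The copies of the alpha and of the beta globin genes are nearly identical, so the division of reads among them is uncertain.

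Heme synthesis genes were higher in MEPs with an exception at the first step. Of 14 genes 11 were higher in MEPs and 1 in GMPs, with a median of -2.38. Every enzyme from the second step on was higher in MEPs, from Ppox (-1.89 ± 0.12) to Cpox, with 11495 and 12327 counts against 925 and 889 (-3.72 ± 0.07, adjusted p = 8.36e-21). Tspo2, an erythroid gene, had 1296 and 1440 counts in MEPs and 0 in GMPs, at least 519-fold higher. Alas1, the housekeeping form of the rate-limiting first enzyme, had 19361 and 19216 counts in GMPs and 631 and 662 in MEPs (4.89 ± 0.08, adjusted p = 4.24e-22). The erythroid form Alas2 was higher in MEPs but low, so that per kilobase of exon Alas1 (8.97 CPM) still exceeded Alas2 (3.02 CPM) in MEPs.

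Iron handling pointed mostly to MEPs, with 7 of 11 genes higher there and 2 in GMPs (22.7% and 27.6% over all genes tested). Both transferrin receptor genes were among the 7, Tfrc with 7360 and 9020 counts against 1844 and 2039 (-2.08 ± 0.16) and Tfr2 with 5556 and 6566 against 479 and 369 (-3.84 ± 0.14). Steap3, the endosomal ferrireductase, was higher in MEPs (-3.09 ± 0.12). The ferritin genes separated, as the heavy chain Fth1 was higher in MEPs (-1.71 ± 0.13) and the light chain Ftl1, with 30483 and 32090 against 29592 and 30984 counts, was not called. Higher in GMPs were Ncoa4, the ferritin autophagy receptor (2.30 ± 0.08), and Hfe, a regulator of iron sensing, with 471 and 534 counts against 0 and 4 (7.90 ± 0.34).

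Megakaryocyte and platelet genes lay on both sides. Of 21 tested, 10 were higher in MEPs and 7 in GMPs. Over all genes tested the shares were 22.7% and 27.6%, so the 7 in GMPs were near theirs. The summed level was similar, at 169 and 177 CPM in GMPs and 182 and 195 CPM in MEPs. Without aged GMP replicate 1 the counts were 6 in MEPs and 7 in GMPs, and with only the 4 libraries fitted 7 and 7. Gp5, a subunit of the von Willebrand factor receptor, had 934 and 1078 counts in MEPs and 5 and 13 in GMPs (-6.79 ± 0.25, adjusted p = 3.51e-16). Vwf itself was higher in MEPs (-5.51 ± 0.46). Selp (P-selectin) had 300 and 274 counts in GMPs and 8 and 11 in MEPs (adjusted p = 2.97e-13), and Cd9 537 and 689 against 130 and 120 (2.28 ± 0.19). The integrin genes Itga2b and Itgb3, which form the platelet fibrinogen receptor, were both higher in GMPs (1.16 ± 0.17 and 2.57 ± 0.45).

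**Figure D3:**
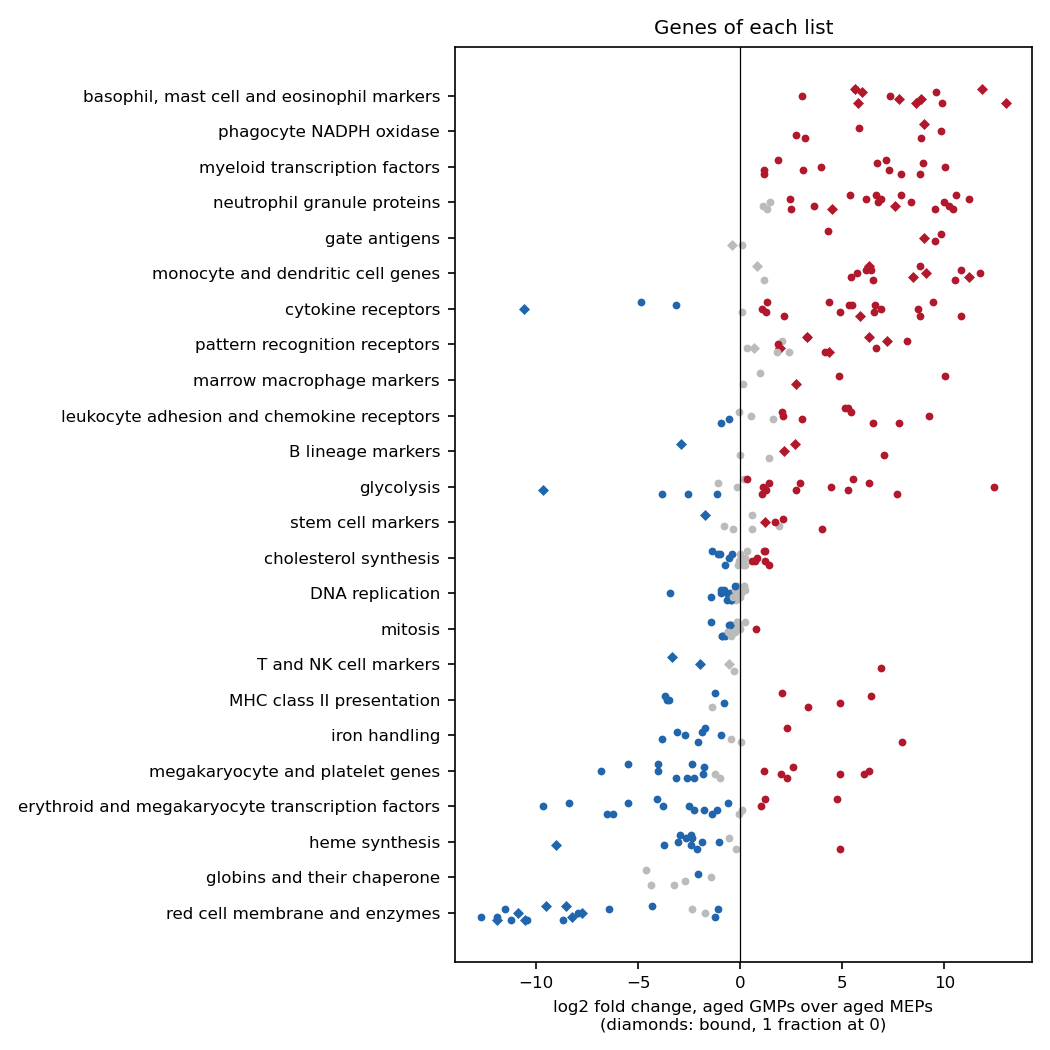
Log2 fold change of aged GMPs over aged MEPs for each gene of the 24 lists (x axis), 1 list per row ordered by its median, with genes called higher in GMPs in red, higher in MEPs in blue and not called in gray; diamonds are bounds for genes at 0 in both libraries of 1 fraction. Granule, oxidase and myeloid factor genes lie to the right, red cell genes to the left, and replication, mitosis and cholesterol genes close to 0.

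At several steps of glycolysis, related genes were higher in opposite fractions. Of 21 genes 13 were higher in GMPs and 4 in MEPs, and the list summed to 14710 and 14910 CPM in GMPs and 7130 and 6778 CPM in MEPs. Pkm, the pyruvate kinase of most tissues, had 31686 and 31942 counts in GMPs and 146 and 166 in MEPs (7.66 ± 0.08, adjusted p = 1.86e-24). Pklr, the liver and red cell pyruvate kinase, had 2015 and 2221 counts in MEPs and 0 in both GMP libraries, at least 803-fold higher. At the first step Hk3 had 11673 and 11273 counts in GMPs and 4 and 0 in MEPs (12.41 ± 0.34). Hk1 was higher in MEPs but present in both fractions, with 9074 and 8043 counts in MEPs and 4132 and 3727 in GMPs (-1.14 ± 0.15).

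Phosphofructokinase and glucose transporter genes also lay on both sides, and lactate dehydrogenase genes did not. Of the phosphofructokinase genes, Pfkp was higher in GMPs (2.73 ± 0.11), Pfkm in MEPs (-3.85 ± 0.10), and Pfkl was not called (0.19 ± 0.07, adjusted p = 0.0191). Of the lactate dehydrogenase genes, Ldhb was higher in GMPs (6.30 ± 0.22), and Ldha, at 18184 and 19154 against 20502 and 21583 counts, was not called (adjusted p = 0.0154). The glucose transporter gene Slc2a1 had 482 and 483 counts in GMPs and 13 and 8 in MEPs (5.50 ± 0.34), and Slc2a3 was higher in MEPs (-2.53 ± 0.12). Pgam1, a phosphoglycerate mutase gene, was also higher in GMPs, with 18728 and 20666 counts against 909 and 905 (4.43 ± 0.07).

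**Figure D4:**
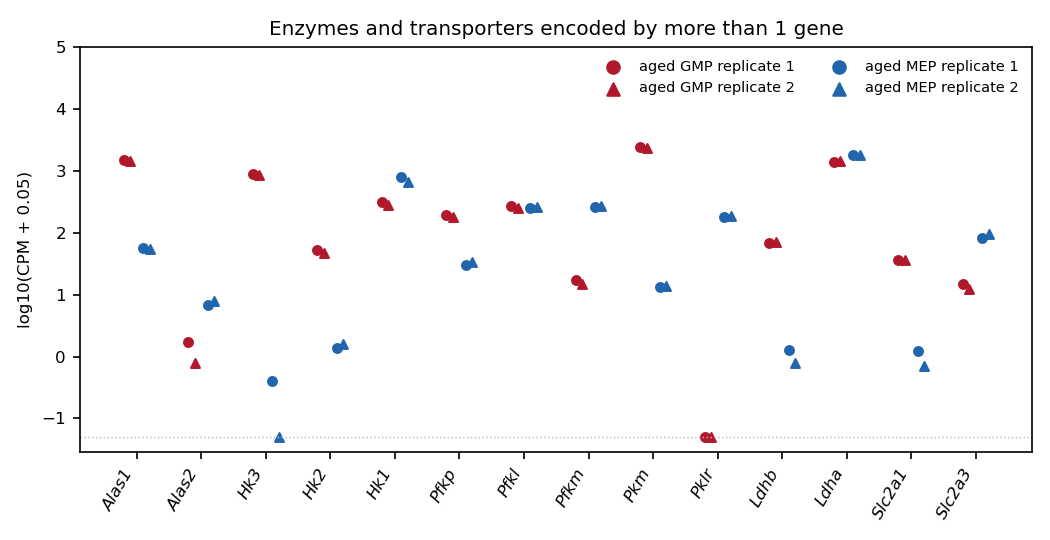
CPM of genes that encode alternative forms of 1 enzyme or transporter in each of the 4 aged libraries, as log10 of CPM plus 0.05, with GMPs in red, MEPs in blue, replicate 1 as circles and replicate 2 as triangles; the dotted line marks 0 CPM. Alas1, Hk3, Hk2, Pfkp, Pkm, Ldhb and Slc2a1 lie higher in GMPs, and Alas2, Hk1, Pfkm, Pklr and Slc2a3 higher in MEPs.

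Cell cycle genes differed by small amounts. Of 24 DNA replication genes 12 were higher in MEPs (22.7% over all genes tested) and the other 12 did not pass the test. Their median was -0.33. Ccne1, cyclin E1, stood apart with 3737 and 3948 counts in MEPs and 350 and 365 in GMPs (-3.43 ± 0.12, adjusted p = 8.28e-17). Cdc6, which loads the replicative helicase, differed by -1.43 ± 0.08 and Rrm1, a ribonucleotide reductase subunit, by -0.94 ± 0.06. Of 20 mitosis genes 8 were higher in MEPs and 1 in GMPs, with a median of -0.42. Cenpa, the centromeric histone, was higher in MEPs (-1.45 ± 0.11), as were Ccnb1 and Plk1 (both -0.87), and Kif23, a kinesin of cytokinesis, was higher in GMPs (0.75 ± 0.09). Of 21 cholesterol synthesis genes 7 were higher in GMPs (4 without aged GMP replicate 1), such as Hmgcs1 (1.42 ± 0.15) and Fdps (1.21 ± 0.09), and 6 in MEPs, such as Lss (-1.38 ± 0.20), shares near those over all genes tested.

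Transcripts of other cell types were read in the same libraries. Of 16 basophil, mast cell and eosinophil markers 13 were higher in GMPs, and the list summed to 3366 and 4512 CPM in GMPs and 2.23 and 1.57 CPM in MEPs. Prg2, the eosinophil major basic protein, had 22544 and 33738 counts in GMPs and 0 in MEPs, at least 8216-fold higher. Epx (eosinophil peroxidase) and Prg3 were likewise at 0 in MEPs and at least 3707-fold and 455-fold higher in GMPs. GMP replicate 2 was above replicate 1 for each of these genes, and the mast cell proteases Mcpt4 and Tpsb2 were at 0 in all 4 libraries. In bulk RNA, more cells of a type and more RNA per cell cannot be told apart.

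Markers of lymphoid cells and macrophages were scarce. The 15 B lineage markers summed to 47.7 and 51.5 CPM in GMPs and 2.49 and 3.05 CPM in MEPs, nearly all of it Cd79b in GMPs (570 and 646 counts against 9 and 0), and 8 markers including Pax5 and Ebf1 were at 0 in all 4 libraries. The T and NK cell list summed to 838 and 885 CPM in GMPs because of Nkg7, with 10997 and 11862 counts, while Cd3e, Cd4 and Cd8a were at 0 in all 4 libraries. Of its 11 markers 2 were called higher in MEPs (1 with only the 4 libraries fitted), the NK cell receptor genes Ncr1 with 20 and 33 counts and Klrd1 with 9 and 12, both at 0 in GMPs. In all, 9 of the 11 markers were at 0 in both GMP libraries and 4 in both MEP libraries. The macrophage list summed to 83.8 and 112 CPM in GMPs, mainly Vcam1 with 978 and 1357 counts against 0 and 2 in MEPs (a ratio of 1026, counting interval 284 to 8477), and the complement genes C1qa and C1qb were at 0. Stem cell markers were low in both fractions, at 62.5 and 59.2 CPM in GMPs and 30.3 and 29.1 CPM in MEPs.

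Many genes were near absent from one of the aged fractions. With at most 3 counts in both libraries of one fraction and at least 100 in both of the other, 206 genes were found in GMPs and 76 in MEPs, and 135 and 57 of these had no count in the low fraction. In young mice 145 of the 206 (70.4%) and 30 of the 76 (39.5%) were over 3 counts in at least 1 library of that same fraction. The genes were picked for low counts in both aged libraries, so the rule for young libraries is looser. Young libraries were also deeper, with totals of 14548313 to 17723245 against 11237384 to 13426057. These shares therefore do not measure a change with age. By mean level the GMP genes were led by Prg2, Epx and Clec12a, and the MEP genes by Ermap, Sphk1 and Abcb4. Of the genes with the largest fold changes, Lbp, a lipopolysaccharide-binding protein, Ly6c1 and Chdh were at least 852-fold, 728-fold and 626-fold higher in GMPs. Abcb4, a phospholipid transporter, the amino acid transporter gene Slc38a5 and the blood group gene Kel were at least 2443-fold, 1720-fold and 732-fold higher in MEPs.

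Promoter windows were found for 11012 of the 14154 tested genes. The PU.1 motif was present in 14.4% of 1442 windows of genes at least 4-fold higher in GMPs, in 5.16% of 485 windows of genes at least 4-fold higher in MEPs and in 9.43% of all tested genes. The C/EBP motif was present in 11.1%, 7.84% and 8.56%. The GATA factor motif was present in 12.9% of the GMP genes, 15.7% of the MEP genes and 10.5% of tested genes, and the KLF1 motif in 4.72%, 4.12% and 3.94%. Over all genes with a RefSeq window the shares were 9.57% (PU.1), 10.8% (C/EBP), 19.0% (GATA factor) and 3.57% (KLF1). Motifs of different factors overlapped in 9 windows. These shares are descriptions of letters in the windows, without a test.

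The same difference was then set beside that in young mice. At 10 weeks 3951 genes were higher in GMPs and 3194 in MEPs, and 5720 genes were called in the same direction at both ages, 80.4% of the aged calls and 80.1% of the young calls. The root mean square log2 difference was 0.7555 between the young GMP duplicates and 0.8401 between the young MEP duplicates. Between the means of aged and young libraries it was 0.6951 for GMPs and 0.9075 for MEPs, so the age distances were near the spread of young duplicates. Rn45s led both young MEP libraries (0.9665% and 1.001% of counts), and Car2 both aged ones. A test of the change with age in the signed log2 value (GMP over MEP) called 769 genes with a higher value at 20 months (5.43% of those tested) and 177 with a lower value (1.25%). Without aged GMP replicate 1 or 2, or aged MEP replicate 1 or 2, the 177 became 64, 67, 84 and 74, and with only the 8 libraries of both ages fitted the counts were 255 and 19. Of the 769 genes, 542 kept their direction with a wider gap in aged cells, and 96 had no count in either aged MEP library. The median change with age of these 769 genes was 0.36 (log2 of mean CPM plus 0.25) in GMPs and -1.41 in MEPs.

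Myeloid lists were read for genes with a higher value at 20 months, called for 5.43% of all genes tested. These were 6 of 12 transcription factors, 4 of 6 NADPH oxidase genes and 6 of 15 monocyte and dendritic cell genes. They were also 5 of 21 granule genes, 3 of 14 adhesion and chemokine receptor genes and 0 of 17 pattern recognition genes. A list of 17 genes is too short to tell 0 from the share over all genes. Irf8 had 306 and 380 counts in young MEPs against 20 and 29 in aged MEPs (difference of differences 3.25, adjusted p = 1.98e-09). Of the genes on other lists, Pkm had 1100 and 989 counts in young MEPs against 146 and 166 in aged MEPs (2.58, adjusted p = 3.02e-14). The erythroid and megakaryocyte factor gene Fli1 had 524 and 779 against 80 and 82 (2.37, adjusted p = 5.47e-08). In these 3 genes both aged MEP libraries were below both young MEP libraries. B lineage markers moved with this comparison, as the list summed to 330 and 323 CPM in young MEPs against 2.49 and 3.05 CPM in aged MEPs, with Cd79a at 836 and 801 counts in young and 0 in aged MEPs. Lists of other cell types were also lower in aged than in young MEPs. Stem cell markers summed to 71.3 and 72.0 CPM in young against 30.3 and 29.1 CPM in aged MEPs, macrophage markers to 22.9 and 21.5 against 6.50 and 7.26 CPM, T and NK cell markers to 33.8 and 39.0 against 12.9 and 16.2 CPM, and monocyte and dendritic cell genes to 58.7 and 68.5 against 7.92 and 9.32 CPM. In GMPs the globin list moved, from 1231 and 1064 CPM in young (1103 and 1090 CPM in young MEPs) to 122 and 46.3 CPM in aged GMPs. The part of these transcripts in the age result was not tested. For Cd79a, which was at 0 in all 4 aged libraries, the fit gave an adjusted p of 1.00 for the age difference, since no aged value could be estimated.

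Among mitosis genes 9 of 20 had a higher value at 20 months (5.43% over all genes tested). Ccnb1 differed by -0.87 at 20 months and -1.80 at 10 weeks (change 0.92, adjusted p = 5.23e-06), and Kif23 went from -0.48 to 0.75 (1.23, adjusted p = 6.72e-07). Mki67, outside the naming rule and chosen after its values were seen, had 1835 and 1955 counts in aged GMPs against 472 and 480 in young GMPs, and 3405 and 2958 in aged MEPs against 2081 and 1737 in young MEPs.

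**Figure D5:**
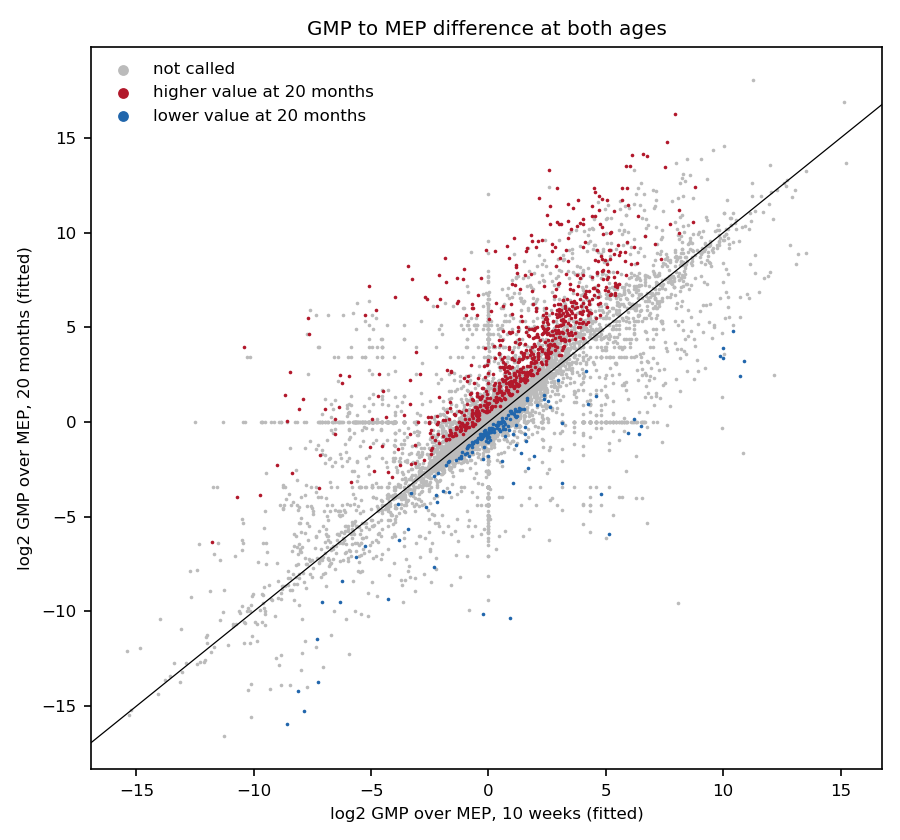
Fitted log2 fold change of GMPs over MEPs at 10 weeks (x axis) and at 20 months (y axis) for each tested gene, with genes whose value was called higher at 20 months in red, lower in blue and the rest in gray; the line marks equal values. The 769 red points lie above the line and the 177 blue points below it; the largest fitted values belong to genes at or near 0 in 1 fraction and depend on the prior count.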

How the data were processed

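Total RNA was reverse transcribed and amplified (SMARTer kit) and sequenced as single reads on an Illumina HiSeq; the labels and the study name different models of it. The authors aligned reads with TopHat2 2.0.13 and Bowtie2 2.1.0 to mm10 and deposited raw counts per gene, taken from StringTie, which are whole numbers without normalization. No use of strand was stated, so counts of near-identical copies and of overlapping or antisense genes are uncertain. Reads carried no molecular identifiers. Other deposited tables (normalized counts and the authors' own age comparisons, with fold changes and p-values) were not used.

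The count matrix held 24421 genes, of which 27 had names turned into dates and are not named. Counts of all 32 libraries were fitted with edgeR 4.0.16 in R 4.3.3 (quasi-likelihood, TMM, filterByExpr, 16 group means, 14154 genes). The contrasts were aged GMP minus aged MEP, the same in young mice, and their difference. P-values are two-sided and adjusted by Benjamini-Hochberg within a contrast, and genes under 0.01 are called. Errors are SE of log2 fold changes or SD over 2 libraries. The fit was also run on simulated counts that gave all genes a common spread. This run does not cover genes with a larger spread, or changes in genes near the floor. Totals of 11237384 to 13426057 counts in the 4 aged libraries put 3 counts at 0.223 to 0.267 CPM.

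The comparison, the 24 gene lists and the tests were chosen with earlier results of these data known. Genes are named as gate antigens or defining markers; as the 3 largest called changes of a list, plus the largest against its median, at 20 CPM or more; as the 8 highest and 8 lowest fold changes and age differences; or as the 5 most abundant of a fraction. Other list members illustrate their list and were chosen after their values were seen. Some genes of these rules are not reported here. Symbols were matched to GENCODE (23350 directly, 669 through older symbols, 402 unmatched), and promoter sequences are from RefSeq on GRCm38.p6, 1 window a gene. A list was described by its counts and median without a test. Alternatives were DESeq2 1.42.0 and its size factors, no filter, other thresholds, fewer libraries, a replicate block, and offsets for GC content and length (98.9% of tested genes had both). Whether the replicate numbers pair the libraries is not stated. Deviations of same-numbered aged GMP and MEP libraries from their group means had a correlation of -0.00586 across genes. With 2 libraries per group the deviations of the duplicates mirror each other, so this single value cannot decide the pairing.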

Additional observations from a re-analysis of the deposited data

Results flagged for a closer look

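The log2 difference between GMPs and MEPs was tested for a change with age, and the genes reported here that passed (edgeR, adjusted p under 0.01) are listed with the change, at 20 months minus at 10 weeks. These calls were less stable than those of the aged comparison. Of 42 named genes, 31 kept their result with only the 8 libraries of both ages fitted. Under a test against a 2-fold change 27 did, and with DESeq2 40. The difference was higher at 20 months for Csf3r (2.31), Gfi1 (4.81), Irf8 (3.25), Fli1 (2.37), Ctsg (3.09), Ncf1 (3.16), Itgam (3.07), Ccnb1 (0.92), Plk1 (0.82), Kif23 (1.23), Hk3 (3.61), Pkm (2.58), Cd79b (5.67), Nkg7 (2.25), Vcam1 (4.83) and Prtn3 (1.82).

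It was lower at 20 months for Gata1 (-1.27), Alas2 (-4.10), Gfi1b (-2.16), Cpox (-0.43), Hbb-b2 (-2.63), Trim10 (-5.04) and Paqr9 (-4.12). For Alas2 and Hbb-b2 the sign of the fitted difference turned, from 1.70 and 0.58 at 10 weeks to -2.41 and -2.06 at 20 months. These are point estimates, and the 10-week values are given without errors, so a true reversal is not established. The globin list, which holds Hbb-b2, summed to 1231 and 1064 CPM in young GMPs, 1103 and 1090 CPM in young MEPs and 122 and 46.3 CPM in aged GMPs; what part these transcripts had in the turned signs was not tested. Aged GMPs had 1 count of Paqr9 and 2 of Trim10 in both libraries together, so both fitted values depend on few counts.

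Where a fraction was at 0 in both libraries, the change is a bound against 3 counts per library. It was higher at 20 months by at least the value given for Fcgr2b (2.22), Ncf4 (2.89), Clec12a (3.24), Ms4a6c (2.51), Ly86 (2.40), Lbp (2.11), Pik3r6 (3.08), Gramd3 (3.73), Tagap (4.34), St14 (4.61), Pik3ap1 (5.67) and Igll1 (7.22), and lower by at least the value given for Epor (-2.71), Tspo2 (-1.76), Abcb4 (-2.67), Kel (-1.41) and Fos (-2.92). Igll1, a surrogate light chain of B cell precursors, had 689 and 559 counts in young MEPs and 0 in aged MEPs. Fos, an immediate early gene, had 8899 and 7278 counts in aged GMPs and 215 and 277 in young GMPs, and 910 and 782 in aged MEPs against 0 in both young MEP libraries.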

How the results depend on the processing

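Both counts of the aged comparison stayed within 1.5 times under other size factors, no filter, DESeq2, only the 4 libraries, GC and length offsets and each library left out (3307 to 3398 genes higher in GMPs and 2702 to 3008 in MEPs). The replicate block gave 3897 and 3226 genes, and 776 and 202 for the age difference, and with GC and length offsets 4014 and 3351, and 806 and 262. A test against a 2-fold change (glmTreat) left 2131 and 852, and an added log2 fold change of at least 1 left 1320 genes higher in MEPs. The age difference was less stable. In place of 769 and 177 genes, DESeq2 called 1161 and 347, only the 8 libraries 255 and 19, glmTreat 287 and 17, and an adjusted p under 0.05 gave 1244 and 582, while no filter gave 98 and the added log2 limit 63 lower values. Leaving out 1 library gave 545 to 857 higher and 64 to 241 lower values at 20 months; the lone library of an arm was then assumed to vary like the others. Without aged GMP replicate 1 or 2, or aged MEP replicate 1 or 2, the lower values fell to 64, 67, 84 and 74. List members higher in MEPs were 63 under glmTreat in place of 103. A minimum of 200 counts left 121 genes near exclusive to GMPs, and a log2 fold change of at least 3 raised the GATA factor share of MEP genes to 19.3%. The causes were not tested.

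List medians that moved by more than the spread between libraries are as follows. Under size factors of DESeq2, the moved medians were 5.07 for cytokine receptors, -0.46 for mitosis, -0.36 for T and NK cell markers and 0.0885 for marrow macrophage markers. Under no filter on low counts, the moved medians were 5.08 for cytokine receptors, -0.45 for mitosis and -0.35 for T and NK cell markers. Under DESeq2, the moved medians were 5.07 for cytokine receptors, 4.14 for pattern recognition receptors, -0.46 for mitosis, 9.84 for basophil, mast cell and eosinophil markers, -0.36 for T and NK cell markers and 0.0888 for marrow macrophage markers. Under GC and length offsets, the moved medians were 5.03 for cytokine receptors, -0.32 for mitosis, 1.07 for glycolysis, -0.37 for T and NK cell markers and 0.72 for stem cell markers. Under replicate block with GC and length offsets, the moved medians were 5.03 for cytokine receptors, -0.32 for mitosis, 1.07 for glycolysis, 0.000516 for B lineage markers, -0.37 for T and NK cell markers and 0.73 for stem cell markers. Under a fit of only the libraries compared, the moved medians were 4.17 for pattern recognition receptors and -0.31 for T and NK cell markers. Under replicate block, the moved medians were 0.00108 for B lineage markers and -0.32 for T and NK cell markers. With each library left out in turn, medians ranged from 6.10 to 9.47 for gate antigens, 6.45 to 6.91 for myeloid transcription factors, -2.15 to -2.02 for erythroid and megakaryocyte transcription factors, 5.01 to 5.11 for cytokine receptors, 6.77 to 9.56 for neutrophil granule proteins, 6.95 to 7.76 for phagocyte NADPH oxidase, 8.63 to 10.22 for monocyte and dendritic cell genes, 4.28 to 5.79 for pattern recognition receptors, -1.29 to -0.28 for MHC class II presentation, 2.49 to 3.62 for leukocyte adhesion and chemokine receptors, -2.46 to -2.32 for heme synthesis, -1.86 to -1.64 for iron handling, -4.01 to -1.74 for globins and their chaperone, -12.06 to -11.30 for red cell membrane and enzymes, -2.30 to -1.49 for megakaryocyte and platelet genes, -0.45 to -0.34 for DNA replication, -0.51 to -0.40 for mitosis, 0.0133 to 0.18 for cholesterol synthesis, 1.02 to 1.17 for glycolysis, 9.96 to 10.79 for basophil, mast cell and eosinophil markers, -0.43 to 0 for T and NK cell markers, 0 to 0.14 for marrow macrophage markers and 0.48 to 0.78 for stem cell markers. Of the 94 named genes, the test of the aged difference kept its call for 94 under the replicate block and 90 to 92 with a library left out. Besides Ly6a and Alas2, calls were lost for Hbb-b2 without aged GMP replicate 2 (-1.61, adjusted p = 0.0175), for Actb without aged GMP replicate 2 (0.31, adjusted p = 0.0293) or aged MEP replicate 2 (0.38, adjusted p = 0.0147), and for Eef1a1 without any of the 4 aged libraries (0.14 to 0.24, adjusted p = 0.0242 to 0.156). Eef1a1 was also not called with DESeq2 (adjusted p = 0.0265), its size factors (adjusted p = 0.0169) or no filter (adjusted p = 0.0151).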
